A study of Mus musculus with 5 samples.

Results

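Glycolysis and hypoxia response genes were followed in tumor-infiltrating CD8+ T cells of mice given an antibody against PD-L1 or a control antibody. The 34 genes were chosen by name and function, with earlier results of these data known. All 34 are among the 23337 genes listed in each library, with Pkm listed under its older symbol Pkm2. They comprise 2 glucose transporters, 14 glycolytic enzymes, 2 lactate transporters and 16 genes of the hypoxia response, a mixed set that holds the transcription factor subunit Hif1a, its regulators Egln1 and Egln3, and known targets.

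The cells were CD8+ T cells of C57BL/6J CD45.1 OT-I mice aged 6 to 12 weeks, whose transgenic T cell receptor recognises ovalbumin. In both groups they had been activated by antibodies to CD3 and CD28, kept in 10 U/ml interleukin-2 until day 5 to 6 of culture, and injected into the blood of mice with a B16-OVA tumor, a melanoma line that makes ovalbumin. The treated group (2 libraries) received anti-PD-L1 and the control group (3 libraries) received an anti-KLH rat IgG2b, in each case 2 injections of 200 µg, 3 and 6 days after the cells. Live CD8+ CD45.1+ cells, pooled from several mice of a group, were sorted from tumors on day 8 or once a tumor had reached 1.2 cm, and 5000 to 30000 cells gave each RNA sample. All cells were therefore effector cells made in culture and placed into an established tumor, and every library is a pool of animals.

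Glycolysis splits glucose into pyruvate in the cytosol. Lactate dehydrogenase turns pyruvate into lactate, which monocarboxylate transporters carry out of the cell. The transcription factor HIF-1 is kept low in oxygen by prolyl hydroxylases that mark its alpha subunit for degradation. When oxygen is scarce it accumulates and induces glucose transporters, glycolytic enzymes and mitochondrial regulators. Activated CD8+ T cells use this route strongly, and antigen receptor and cytokine signals can also raise HIF-1.

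The libraries held 9985943 to 12830485 counts assigned to genes, and a floor of 3 counts lay between 0.234 and 0.3004 CPM, the unit in which counts of libraries of unequal size are made comparable. The labelled cell type was met, since the 8 matched CD8 T cell markers, all detected in every library (led by Cd8a and Lck), gave a sum of 7310 to 8205 CPM in the controls and of 9385 and 7841 CPM in the treated libraries. The 8 melanoma markers (led by Pmel and Dct, with 6 above 0 in every library) summed to 6.94, 370 and 116 CPM in Control IgG replicates 1 to 3 and to 48.8 and 125 CPM in anti-PD-L1 replicates 1 and 2. The 10 macrophage markers (led by Lyz2 and Apoe, with 9 above 0 in every library) summed to 95.1 to 221 CPM in the controls and to 92.3 and 155 CPM under anti-PD-L1. The 7 natural killer markers were led by Klre1 and Eomes, with Klra8 and Klra4 at 0 in every library. They summed to 101 to 128 CPM in the controls, 219 CPM in anti-PD-L1 replicate 1 and 125 CPM in replicate 2. Klre1 alone had 202 CPM in anti-PD-L1 replicate 1, against 56.0 to 93.8 CPM in the other libraries. Eomes was lowest in that library, at 6.04 CPM against 18.8 to 29.6 CPM in the others. Lists for dendritic cells (led by Xcr1 and Zbtb46), B cells (Cd79b and Cd79a), CD4 T cells (Cd40lg and Zbtb7b), neutrophils (Csf3r and Mpo), endothelial cells (Pecam1 and Vwf), fibroblasts (Col1a1 and Fn1) and erythroid cells (Hbb-bs and Alas2) each had sums of at most 57.6 CPM in any library. Anti-PD-L1 replicate 1 had the lowest share of reads without a feature (7.46%) and replicate 2 the highest (15.2%). Control IgG replicates 1 to 3 had 9.02%, 14.0% and 11.2%. Genes with any count numbered 11696, 13673 and 13801 in the controls and 11977 and 13564 under anti-PD-L1. They were thus fewest in both libraries numbered 1. The parts of these quantities in the results below were not tested.

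Scaled by transcript length, the T cells held far more RNA of most lower glycolytic enzymes than of the transporters and of most hypoxia genes. In the controls Ldha, which makes lactate from pyruvate, stood highest at 2378 ± 395 CPM per kilobase (SD, n = 3). Aldolase A (Aldoa) followed at 1298 ± 30.1, then triosephosphate isomerase (Tpi1) at 986 ± 17.3 and pyruvate kinase (Pkm) at 958 ± 183 CPM per kilobase, a pair that lies within the spread of the pyruvate kinase gene. Phosphoglycerate kinase (Pgk1) came next at 659 ± 64.5 CPM per kilobase. The highest hypoxia genes were Fam162a, which encodes a mitochondrial protein, at 263 ± 53.0 and Hif1a at 115 ± 11.5 CPM per kilobase. At the other end, the mitochondrial adenylate kinase Ak4 stood at 1.19 ± 0.0913 CPM per kilobase. Vegfa, the angiogenic growth factor, was too low to be tested, with 1, 7 and 3 counts in the controls and 1 and 5 under anti-PD-L1, which lie around the floor of 3 counts.

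**Figure D1:**
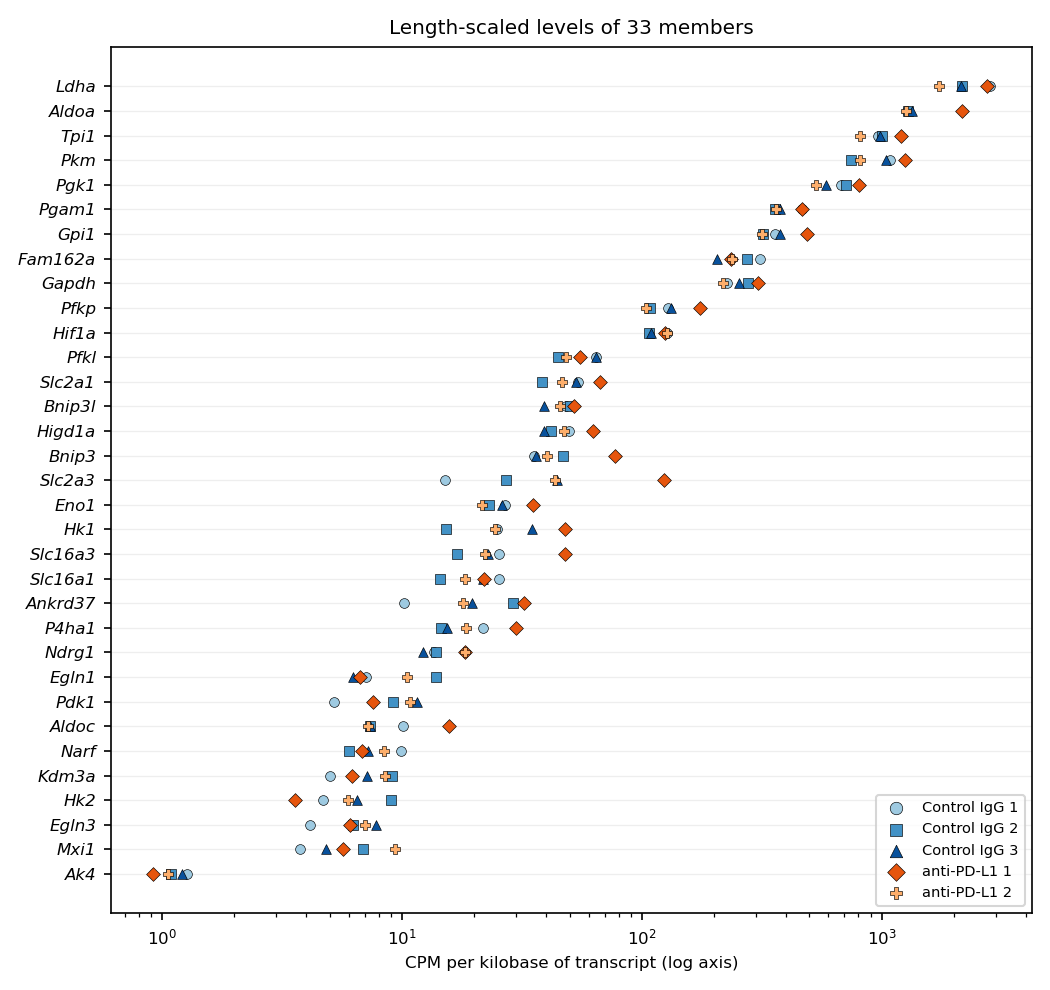
Length-scaled levels of the 33 tested genes in each of the 5 libraries, in CPM per kilobase of transcript on a log axis. Ldha, Aldoa, Tpi1 and Pkm lie at the high end and Ak4 at the low end in both groups.

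Some of these levels carry a counting limit, because the counter could lose or share reads of near-identical copies. Of the 50-base windows of the principal transcript, 82.5% of those of Gapdh also occur in transcripts of other genes (222 of them). The shares are 72.2% for Eno1, mainly with Eno1b, 68.0% for Pgk1, 62.5% for Bnip3, 41.5% for Pgam1, 36.6% for Higd1a and 34.4% for Pkm. Gapdh stood at 253 ± 25.8 and Eno1 at 25.3 ± 2.02 CPM per kilobase in the controls, and the levels of all 7 genes are uncertain for this reason. Slc2a3, Hk1, Hk2, Aldoc, Slc16a1 and Slc16a3 share no such window.

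HIF-1 binds sites with the core ACGTG or GCGTG, so the promoters of the genes were read for these letters. RefSeq promoters of GRCm38.p6, 250 bases before to 50 after the first listed start, were given for 31 of the 34 genes (not for Slc2a3, Bnip3l and Ndrg1). A match to ACGTG or GCGTG on either strand was present in 24 of the 31 (77.4%), against 43.8% of 27025 promoters and 64.1% of the 8141 promoters of tested genes. The letters ACGTG alone, on either strand, were in 54.8% of the 31, against 19.7% of all promoters and 26.8% of those of tested genes. A CACGTG counts once on each strand. The median GC content was 65.0% in the 31, 52.7% over all promoters and 60.7% over tested genes, and no matching for GC content was made. These letters were not found in the windows of Tpi1, Gpi1, Aldoa, Pkm, Hk1, Vegfa and Mxi1. Stretches around the matches are shown 5′ to 3′ for a glucose transporter, 2 enzymes, a lactate transporter and 2 hypoxia genes whose values follow, with the matches in capitals.
Slc2a1 (chr4:119108674-119108723, plus strand): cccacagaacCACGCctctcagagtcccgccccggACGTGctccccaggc
Ldha (chr7:46845746-46845784, plus strand): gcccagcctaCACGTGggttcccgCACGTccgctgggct
Pgk1 (chrX:106186940-106186983, plus strand): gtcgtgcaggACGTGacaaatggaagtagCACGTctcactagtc
Slc16a3 (chr11:120949030-120949066, plus strand): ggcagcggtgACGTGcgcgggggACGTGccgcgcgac
Bnip3 (chr7:138909527-138909624, minus strand): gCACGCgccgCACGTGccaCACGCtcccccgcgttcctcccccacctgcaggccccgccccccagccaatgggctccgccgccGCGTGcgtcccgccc
P4ha1 (chr10:59323123-59323184, plus strand): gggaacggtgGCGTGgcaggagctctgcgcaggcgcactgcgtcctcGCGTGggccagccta
Each stretch ends before the RefSeq start. In the GENCODE vM21 annotation the Pgk1, Bnip3 and P4ha1 stretches lie upstream of the gene, the Slc2a1 stretch runs across its annotated start, and the Ldha and Slc16a3 stretches lie inside the gene, downstream of its first annotated start. The Bnip3 stretch holds 5 matches, the Ldha stretch 3 and the others 2 each.

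Glucose transporter 3 showed the widest difference between the groups, and most of it came from 1 library. No gene passed the threshold in the comparison of anti-PD-L1 with Control IgG: 0 of 11299 tested genes (0.0%) had an adjusted p under 0.05 in edgeR's quasi-likelihood test, and none of the 33 tested members did. At an unadjusted p under 0.05 edgeR had 241 of all genes (2.13%) and 1 member, Slc2a3. DESeq2 called 4 of 15088 genes, none of them a member, with 395 genes at an unadjusted p under 0.05. All adjusted p-values of members were 0.9999. In bulk RNA, fewer cells of a type and less RNA per cell cannot be told apart, and a p-value here reflects only how these pools vary, since the labels do not tell which mice or days entered which library.

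Slc2a3, on chromosome 6 (122727809 to 122801640, GRCm38, minus strand), encodes GLUT3, the high-affinity glucose transporter. Control IgG replicates 1, 2 and 3 had 59.6, 108 and 175 CPM, and the anti-PD-L1 libraries had 490 and 172 CPM (the order of replicates is kept throughout). Replicate 1 was above every control, whereas replicate 2 lay within the control range. The log2 fold change was 1.53 ± 0.52 (SE), with an unadjusted p of 0.0182 in edgeR. It was 0.59 without anti-PD-L1 replicate 1, 2.13 without replicate 2, 1.225 without Control IgG replicate 1 and 0.26 without both libraries numbered 1.

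Slc2a1 encodes GLUT1, the main glucose transporter of activated T cells. It stood at 177, 125 and 173 CPM in the controls and at 218 and 151 CPM under anti-PD-L1, with overlapping groups and a log2 fold change of 0.22 ± 0.28. Scaled by length, Slc2a1 made up 78.3%, 58.5% and 54.5% of the RNA of the 2 glucose transporters in the controls and 35.1% and 51.6% under anti-PD-L1. Both treated libraries were below every control in this share, replicate 2 only just. The difference of the group means was -20.41 percentage points, and it was not tested. It was -12.13 when anti-PD-L1 replicate 1 was left out, -13.14 when Control IgG replicate 1 was and -28.68 when anti-PD-L1 replicate 2 was.

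The lactate transporters divided in the same library. Slc16a3 encodes MCT4, the exporter typical of strongly glycolytic cells, and stood at 110, 73.7 and 99.3 CPM in the controls and at 208 and 96.7 CPM under anti-PD-L1. Its log2 fold change was 0.69 ± 0.35, with an unadjusted edgeR p of 0.0855, and 0.03 without anti-PD-L1 replicate 1. Slc16a1, which encodes MCT1, the transporter that can also import lactate, stood at 112, 64.0 and 96.4 CPM in the controls and at 97.8 and 81.0 CPM under anti-PD-L1, inside the control range in both libraries. Slc16a3 took 50.0%, 54.0% and 51.3% of the length-scaled pair in the controls and 68.4% and 54.9% under anti-PD-L1. Both treated libraries were above the controls in this share, replicate 2 only just, and the difference of the means, 9.9 percentage points, was 3.15 without replicate 1 and 16.66 without replicate 2. Of the 4 transporters 3 had a positive fold change, with a median of 0.45 on the log2 scale, against 5438 of 11299 and a median of -0.015 over all tested genes. The transporter median was -0.018 without anti-PD-L1 replicate 1, with 2 of 4 positive, 0.83 without replicate 2 and 0.074 without both libraries numbered 1.

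**Figure D2:**
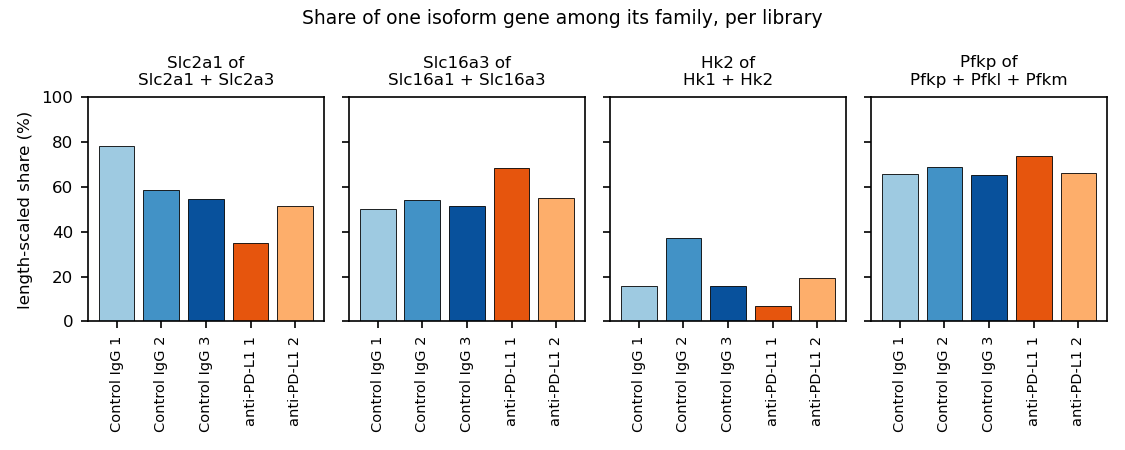
Length-scaled share in percent of 1 gene among its close relatives in each of the 5 libraries, 1 bar per library. Slc2a1 takes 35.1% of the glucose transporter pair and Slc16a3 68.4% of the lactate transporter pair in anti-PD-L1 replicate 1. In the same library Hk2 takes 6.93% of the hexokinase pair and Pfkp 73.8% of the phosphofructokinase genes.

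The glycolytic enzymes stood on opposite sides of the controls in the 2 treated libraries. In anti-PD-L1 replicate 1, 12 of the 14 enzymes lay above the control mean, with Hk2 and Pfkl below it. In replicate 2, 13 of the 14 lay below it, with Hk1 above. Replicate 1 was above all 3 controls for 10 of 14 enzymes, against 26.3% of all tested genes, and replicate 2 was below all 3 controls for 9 of 14, against 20.9%. On the log2 scale the median deviation from the control mean was 0.35 for the first of these libraries and -0.22 for the second, while the 3 controls had medians of 0.07, -0.13 and 0.03. Replicate 1 was higher than replicate 2 for 92.9% of the enzymes, by a median of 0.63, against 47.2% of all tested genes, with a median of -0.05. In these enzymes the gap between the 2 treated pools thus exceeded the median range of the controls, 0.33, and the gap itself was not tested. The split was not particular to the enzymes. Replicate 1 was the higher for 87.5% of citric acid cycle genes and for 75.0% each of pyruvate entry and pentose phosphate genes. The median gaps there were smaller, at 0.18, 0.28 and 0.29. Replicate 2 was below all 3 controls for 8 of 16 citric acid cycle genes. In the further genes of glycolysis and hypoxia, replicate 1 was the higher for 52.9% and 50.0%. With library totals in place of TMM factors the enzyme medians were 0.24 and -0.17 in replicates 1 and 2.

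Between the groups the enzymes therefore differed little. With positive fold changes for 11 of 14 and a median of 0.08, none of the 14 had groups that did not overlap, against 7.73% of tested genes with both treated libraries above all controls and 9.57% with both below. Scaling by library totals alone left 8 positive and 6 negative, with Tpi1, Gapdh and Pgk1 changing sign. Without anti-PD-L1 replicate 1 all 14 were negative, with a median of -0.23, and without replicate 2, 12 of 14 were positive, with a median of 0.37. As a share of all gene counts the 14 enzymes together took 1.40%, 1.42% and 1.5% in the controls and 1.72% and 1.24% under anti-PD-L1. The treated pair lay on either side of the 3 controls, 1.44 ± 0.0499% (SD, n = 3) against 1.48 ± 0.338% (SD, n = 2).

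**Figure D3:**
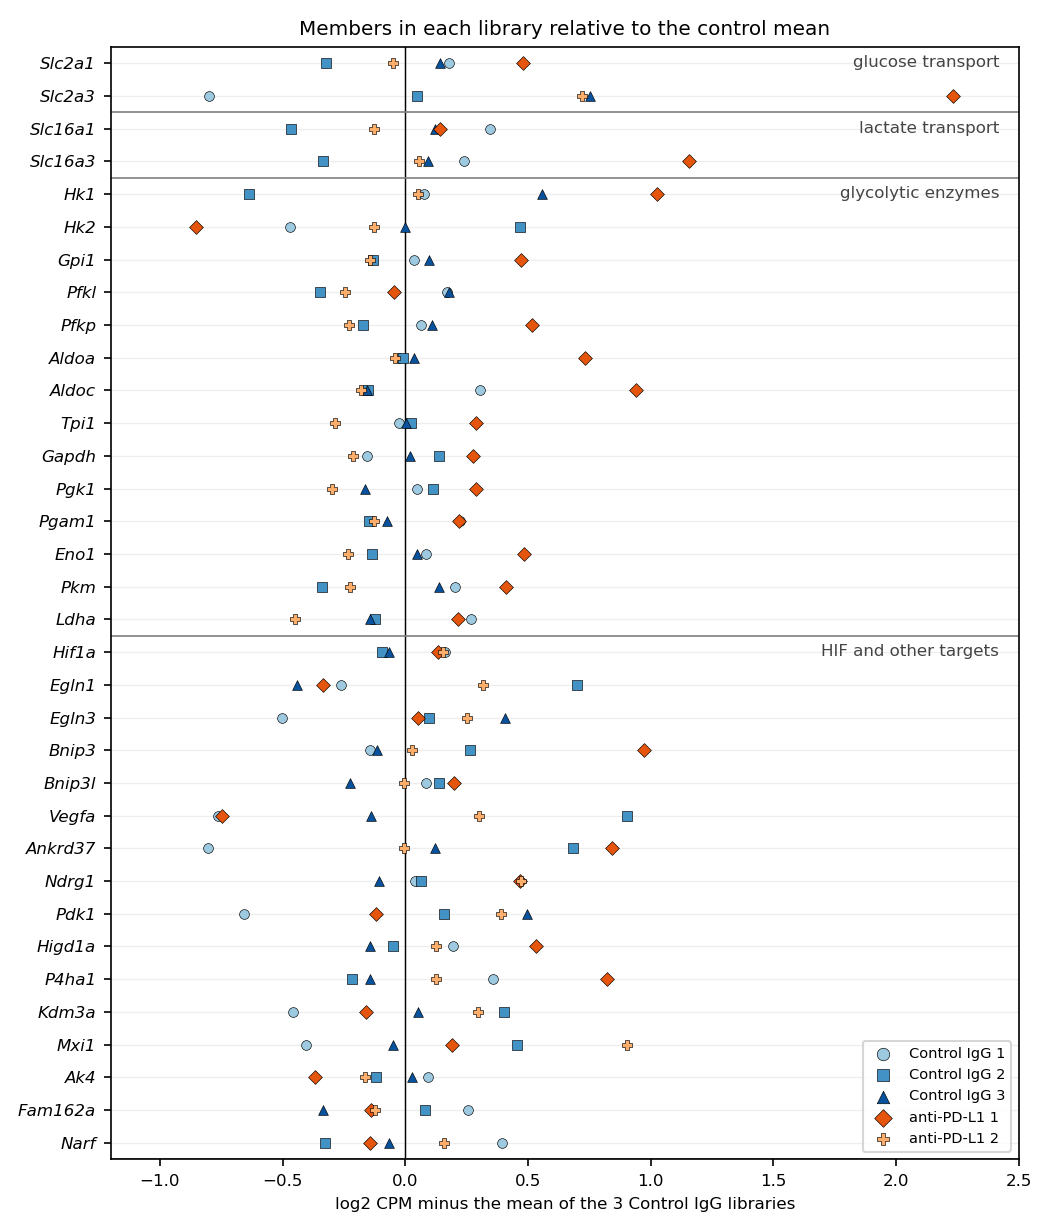
Log2 CPM minus the mean of the 3 Control IgG libraries for the 34 genes, Vegfa included though not tested, 1 point per library. For the enzymes the point of anti-PD-L1 replicate 1 lies to the right in 12 of 14 and that of replicate 2 to the left in 13 of 14, and Slc2a3 has the point farthest to the right.

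The first steps of the pathway showed the pattern in part. Hk1 and Hk2 encode hexokinases, which trap glucose in the cell as glucose 6-phosphate. Hk1 stood at 95.9, 58.5 and 134 CPM in the controls and at 185 and 94.4 CPM under anti-PD-L1, with a log2 fold change of 0.54 ± 0.40 that was -0.03 without replicate 1. Hk2, the isoform induced on activation, stood at 25.8, 49.6 and 35.8 CPM in the controls and at 19.7 and 32.8 CPM under anti-PD-L1. Its log2 fold change was -0.50 ± 0.38, and replicate 1 alone was below every control. The share of Hk2 in the length-scaled pair ranged from 15.7% to 37.2% in the controls and was 6.93% and 19.5% under anti-PD-L1, inside that range in replicate 2. Phosphofructokinase, the committing step, was encoded mainly by the platelet-type gene Pfkp (65.2% to 73.8% of the length-scaled RNA of the 3 genes), which stood at 531, 450 and 548 CPM in the controls and at 727 and 433 CPM under anti-PD-L1. The treated values thus lay above and below the control range. Pfkl, the liver-type gene, had a log2 fold change of -0.16 ± 0.26, and Gpi1, which makes fructose 6-phosphate, of 0.19 ± 0.27.

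Further down, Aldoa, which splits fructose 1,6-bisphosphate, had the most uniform controls among the abundant enzymes after Tpi1. It stood at 1925, 1948 and 2013 CPM there and at 3257 and 1906 CPM under anti-PD-L1. Replicate 1 was far above every control and replicate 2 just below them, giving a log2 fold change of 0.40 ± 0.28 with an unadjusted edgeR p of 0.1932. Aldoc, a minor isozyme, stood at 28.3, 20.5 and 20.5 CPM in the controls and at 43.9 and 20.1 CPM under anti-PD-L1. Glyceraldehyde 3-phosphate dehydrogenase (Gapdh) stood at 321, 394 and 363 CPM in the controls and at 434 and 309 CPM under anti-PD-L1. Pgk1, which makes the first ATP of the pathway, stood at 1241, 1298 and 1072 CPM in the controls and at 1464 and 976 CPM under anti-PD-L1. In each of these 4 genes the treated libraries stood on either side of the controls.

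The last steps held to this in part. Enolase (Eno1) stood at 54.4, 46.7 and 53.0 CPM in the controls and at 71.7 and 43.6 CPM under anti-PD-L1, again on either side. Pkm, which makes pyruvate and ATP, stood at 2643, 1819 and 2527 CPM in the controls and at 3056 and 1967 CPM under anti-PD-L1, so that replicate 2 stayed within the control range. Ldha stood at 5004, 3821 and 3772 CPM in the controls and at 4838 and 3051 CPM under anti-PD-L1, and there it was replicate 1 that stayed within the range. The log2 fold changes of the 3 genes were 0.17 ± 0.29, 0.11 ± 0.29 and -0.09 ± 0.29. Tpi1 and the phosphoglycerate mutase Pgam1 differed by 0.03 ± 0.26 and 0.05 ± 0.25.

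The hypoxia response genes had medians above the control mean in both treated libraries, though not far above that of Control IgG replicate 2. Their median deviation from the control mean was 0.13 and 0.16 in the treated libraries and 0.041, 0.095 and -0.067 in the controls. Over all tested genes the treated libraries had medians of -0.041 and 0.044. Of the treated libraries, replicate 1 was the higher for 33.3% of 15 hypoxia genes. With library totals in place of TMM factors the treated hypoxia medians were 0.019 and 0.208, so their nearness depends on the scaling. A positive fold change was seen for 11 of the 15 tested genes, with a median of 0.11 on the log2 scale. That median ranged from 0.13 to 0.27 when 1 library was left out, with the highest values without Control IgG replicate 2 (0.27) and replicate 3 (0.27), and it was 0.048 without both libraries numbered 1 and 0.058 with library totals. Summed, the 16 genes took 0.130% to 0.147% of the gene counts in the controls and 0.146% and 0.152% under anti-PD-L1.

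**Figure D4:**
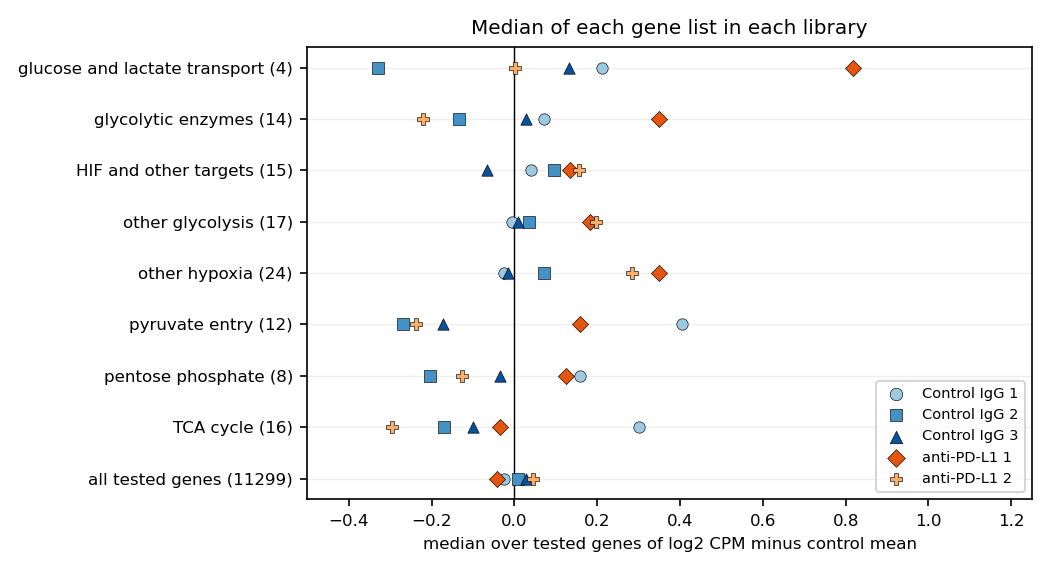
Median over the tested genes of each list of log2 CPM minus the control mean, 1 point per library. The enzymes have medians of 0.35 and -0.22 in anti-PD-L1 replicates 1 and 2, and the hypoxia genes 0.13 and 0.16.

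Among the regulators, Hif1a stood at 604, 505 and 516 CPM in the controls and at 592 and 601 CPM under anti-PD-L1. The treated pair lay at the top of the control range, with a log2 fold change of 0.14 ± 0.23. HIF-1 alpha is regulated largely at the protein level, which these data do not measure. Egln1, which encodes the main oxygen-sensing prolyl hydroxylase, stood at 25.4, 49.7 and 22.4 CPM in the controls and at 24.1 and 37.9 CPM under anti-PD-L1. Egln3, a prolyl hydroxylase that HIF itself induces, stood at 11.0, 16.7 and 20.8 CPM in the controls and at 16.2 and 18.6 CPM under anti-PD-L1. For both genes the treated values lay within the control range.

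Ndrg1, a stress-induced gene and HIF target on chromosome 15 (66929318 to 66969640, GRCm38, minus strand), was the 1 member with both treated libraries above all controls, a position held by 7.73% of tested genes. It stood at 39.3, 40.0 and 35.5 CPM in the controls and at 52.9 and 53.0 CPM under anti-PD-L1, that is 38.3 ± 2.45 (SD, n = 3) against 53.0 ± 0.0745 CPM (SD, n = 2). The log2 fold change was 0.47 ± 0.25, with an unadjusted edgeR p of 0.0945. It kept this size in all 11 alternatives, from 0.42 to 0.50, and passed the adjusted threshold in none. Ak4 was the 1 member with both treated libraries below all controls, against 9.57% of tested genes, at 4.76 to 5.54 CPM in the controls and 3.99 and 4.62 CPM under anti-PD-L1. Its log2 fold change of -0.27 ± 0.54 rests on few counts.

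Bnip3, a mitochondrial receptor that directs mitochondria to autophagy, stood at 62.4, 82.8 and 63.7 CPM in the controls and at 136 and 70.4 CPM under anti-PD-L1. Its log2 fold change was 0.56 ± 0.32, and it was 0.02 without replicate 1. P4ha1, the catalytic subunit of collagen prolyl hydroxylase, stood at 88.1, 59.0 and 62.2 CPM in the controls and at 121 and 74.9 CPM under anti-PD-L1, with a log2 fold change of 0.49 ± 0.31 that was 0.10 without replicate 1. In both genes replicate 1 was above every control, as for most enzymes, and replicate 2 was inside the control range. Higd1a, which encodes a protein of the mitochondrial inner membrane, stood at 111, 93.6 and 87.6 CPM in the controls and at 140 and 106 CPM under anti-PD-L1, with a log2 fold change of 0.34 ± 0.25.

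Pdk1, a kinase that inhibits pyruvate dehydrogenase, stood at 26.9, 47.5 and 60.2 CPM in the controls and at 39.1 and 55.8 CPM under anti-PD-L1. The groups overlapped, and Control IgG replicate 1 was the lowest library. The same control was the lowest library for Egln3 and for Ankrd37 (9.48 CPM, against 16.6 to 30.03 elsewhere). It was lowest for the histone demethylase Kdm3a (24.3 against 29.9 to 44.2 CPM) and the MYC antagonist Mxi1 (8.76 against 11.3 to 21.97 CPM). So it was for Slc2a3 (59.6 CPM) and, narrowly, for Bnip3 (62.4 CPM). Other members went the other way, as this control was the highest library for Fam162a, Narf, Ak4, Ldha and Slc16a1 and, narrowly, for Hif1a and Pgam1. Without this control the log2 fold changes of 7 members changed sign, namely Egln3, Pdk1, Kdm3a, Gapdh, Ldha, Slc16a1 and Narf. The mitophagy receptor Bnip3l had a log2 fold change of 0.09 ± 0.24, Fam162a of -0.15 ± 0.26 and Narf, a nuclear prelamin-binding factor, of -0.02 ± 0.32.

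The remaining genes of these pathways were taken from lists written for this comparison, and none passed the adjusted threshold in either direction. Of 24 tested further hypoxia genes 16 had a positive fold change, with a median of 0.21, and 3 had an unadjusted edgeR p under 0.05, against 2.13% of all tested genes. The median was 0.06 without both libraries numbered 1 and 0.13 with a replicate block. The 3 genes were Errfi1, a feedback inhibitor of EGF receptor signalling, Ccng2, a cyclin that restrains the cell cycle, and Plin2, a lipid droplet coat protein. Errfi1 stood at 14.7, 12.1 and 12.5 CPM in the controls and at 18.6 and 30.02 CPM under anti-PD-L1 (log2 fold change 0.89 ± 0.35). Ccng2 stood at 10.9, 22.03 and 15.9 CPM and at 36.3 and 24.4 CPM (0.90 ± 0.39). Plin2 stood at 54.3, 43.3 and 49.2 CPM and at 89.4 and 61.6 CPM (0.63 ± 0.27). All 3 had both treated libraries above every control, as did 3 more of the 24, a position held by 7.73% of all tested genes.

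Of 17 tested further genes of glycolysis 10 had a positive fold change, with a median of 0.21. That median was 0.06 without anti-PD-L1 replicate 1, 0.13 without replicate 2 and -0.028 without both libraries numbered 1, where 7 were positive and 10 negative. The treated libraries had median deviations of 0.18 and 0.20 over these genes. Among these 17 genes the smallest unadjusted p-values were those of Adpgk, an ADP-dependent glucokinase, with a log2 fold change of -0.84 ± 0.37, and of Pgm1, a phosphoglucomutase, with 0.85 ± 0.41. Pgm1 was high in anti-PD-L1 replicate 1 alone, with 81.9 CPM against 28.00 to 33.95 CPM in the other libraries. In the pentose phosphate pathway 4 of 8 genes were positive, with a median of 0.03. Leaving out anti-PD-L1 replicate 1 gave -0.14 and leaving out replicate 2 gave 0.15. H6pd and G6pdx, its first dehydrogenases, had log2 fold changes of 0.61 ± 0.37 and -0.41 ± 0.33.

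Among genes of the citric acid cycle 13 of 16 had a negative fold change, with a median of -0.17. This count moved with a library of either group. Control IgG replicate 1 had a median deviation of 0.30 over these genes and anti-PD-L1 replicate 2 one of -0.30. Without either of them 9 of 16 were negative, with a median of -0.02 without the former and -0.03 without the latter, and leaving out anti-PD-L1 replicate 1 gave -0.32. Fumarase (Fh1) stood at 278, 176 and 156 CPM in the controls and at 132 and 122 CPM under anti-PD-L1, below every control (log2 fold change -0.68 ± 0.31, unadjusted edgeR p of 0.0569). Suclg1, a subunit of succinyl-CoA ligase, had a log2 fold change of -0.34 ± 0.28. In the list for pyruvate entry into mitochondria and its use there, 9 of 12 genes were negative, with a median of -0.07. Leaving out Control IgG replicate 1 gave a median of 0.10, leaving out anti-PD-L1 replicate 2 gave 0.15 and leaving out anti-PD-L1 replicate 1 gave -0.26. Its leading genes were Pdhb and Dld, both parts of the pyruvate dehydrogenase complex, with log2 fold changes of -0.35 ± 0.25 and -0.47 ± 0.40.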

How the data were processed

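Sorted OT-I CD8+ T cells from mouse tumors gave 5 poly(A) libraries made by Smart-seq2, a chemistry that marks neither strand nor molecule. The authors deposited whole-number read counts per gene symbol, not normalized. TopHat, HTSeq and mm10 are named per the submitters' processing notes. Their versions, the annotation and the strand setting were not given in the sources used here. The 5 counter lines were left out: reads without a feature were 7.46% to 15.2% of all counts and ambiguous reads 1.38% to 1.51%. The floor of 3 counts covers counting error only.

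The 2 groups were compared by edgeR 4.0.16 (R 4.3.3) with its two-sided quasi-likelihood F-test and TMM factors, over the 11299 genes that filterByExpr keeps at its default settings (count 10, total 15). Benjamini-Hochberg adjustment ran over all of them, with a threshold of 0.05. The median standard error was 0.38 on the log2 scale. CPM values use TMM factors, except summed shares and markers, which use library totals. Deviations use log2 CPM with a prior count of 2. Lengths and coordinates are those of GENCODE vM21 on GRCm38, the longest principal transcript per gene. The edgeR step was tested on simulated data. DESeq2 1.42.0 was an alternative.

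Members and lists were chosen with earlier results of these data known, so no list was tested and no p adjusted over a list. Values per library are printed for 21 members chosen by name and for any of the 4 smallest unadjusted p in its role group. Of each pathway list the 2 genes of smallest p are named, and of each marker list the 2 of highest mean level. Plin2, Kdm3a, Mxi1, Ankrd37 and Ak4 were given values per library, or a range, after their values were seen. Of 195 list symbols, 4 had no match.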

Additional observations from a re-analysis of the deposited data

How the results depend on the processing

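No member passed the adjusted threshold under any of 11 alternatives, where the smallest adjusted p was 0.3249. Genes called overall numbered 4 with the DESeq2 test, 5 with no low-count filter and 1 without both libraries numbered 1, against 0. Leaving out 1 library moved the transport median from -0.018 to 0.83, that of the enzymes from -0.23 to 0.37 and that of the hypoxia genes from 0.13 to 0.27 (0.108 with all 5 libraries, 0.058 with library totals and 0.048 without both libraries numbered 1), and the log2 difference of the summed enzymes from -0.21 to 0.26. With a replicate block the hypoxia median was 0.26 and Pgk1, Slc16a1 and Bnip3l changed sign (-0.086, 0.069 and -0.017). The samples share only a number. Deviations from the mean of each group correlated at 0.331 and 0.374 for same-numbered libraries and at -0.374 to 0.162 for others. With 2 treated libraries the deviation of each mirrors that of the other, so part of these signs is fixed in advance. These values therefore cannot tell whether a number marks a shared origin. Library totals turned Tpi1, Gapdh and Pgk1 (-0.020, -0.008 and -0.028). Without both libraries numbered 1 the transport median was 0.074, the enzyme median -0.20, the summed enzymes -0.23, and 16 members changed sign: Hk1 -0.047, Gpi1 -0.15, Pfkp -0.22, Aldoa -0.068, Aldoc -0.041, Tpi1 -0.31, Gapdh -0.31, Pgk1 -0.29, Pgam1 -0.031, Eno1 -0.21, Pkm -0.16, Egln1 0.069, Egln3 -0.025, Bnip3 -0.068, Ankrd37 -0.45 and Narf 0.34. Leaving out 1 library turned 21 members, over these ranges: Slc2a1 -0.070 to 0.49, Hk1 -0.028 to 0.98, Gpi1 -0.15 to 0.50, Pfkp -0.24 to 0.54, Aldoa -0.043 to 0.76, Aldoc -0.20 to 0.96, Tpi1 -0.29 to 0.32, Gapdh -0.22 to 0.30, Pgk1 -0.30 to 0.31, Pgam1 -0.14 to 0.24, Eno1 -0.24 to 0.51, Pkm -0.25 to 0.42, Ldha -0.46 to 0.24, Slc16a1 -0.22 to 0.16, Egln1 -0.40 to 0.38, Egln3 -0.11 to 0.33, Bnip3l -0.015 to 0.22, Ankrd37 -0.13 to 0.75, Pdk1 -0.18 to 0.35, Kdm3a -0.17 to 0.27 and Narf -0.16 to 0.21. A treated library left alone was assumed to vary like the other group. Vegfa was too low to test. With DESeq2 size factors, the DESeq2 test and no low-count filter all 33 members kept their direction. The cause of these shifts was not tested.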
